A study of Sicyos edulis with 9 samples.

Results

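A set of 5 MYB transcription factor unigenes whose mean level climbed through the storage of chayote fruit was followed library by library. They are FSG0250900, FSG0036280, FSG0159340, FSG0079980 and FSG0179850, which the files list as TRINITY_DN28179_c0_g1, TRINITY_DN11249_c0_g6, TRINITY_DN2310_c0_g1, TRINITY_DN3626_c0_g1 and TRINITY_DN8447_c0_g1. They are 5 of the 57814 unigenes in the files, and all 5 passed the filter on low values that left 30201 unigenes for testing, FSG0036280 only through its S3 libraries. They were taken from the study's list of flavonoid genes and factors because their mean values rise from stage to stage, so their rise is how they were picked and is described here without a test. A mean that rises in both steps was found in 19.1% of the tested unigenes.

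The fruit were wild-type 'Chayote' (Sicyos edulis, a cucurbit eaten as a vegetable), with no other genotype or agent in any group. RNA was sequenced at the optimal harvest stage (S1), at day 15 of storage (S2) and at day 30 (S3), each with 3 libraries that the study treats as independent biological replicates. The methods place the fruit in plastic containers at an optimum storage temperature, whereas other text of the study speaks of room temperature. Storage time was the only factor, so stage and anything else that changed with time cannot be told apart. In such bulk RNA, more cells of a type and more RNA per cell cannot be told apart either. No annotation of the unigenes beyond the study's own lists and text was at hand, so markers of tissue, cell type or RNA quality were not analysed here.

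MYB proteins are a large family of plant transcription factors that bind DNA through repeats of the MYB domain. Many R2R3-type members act with bHLH and WD40 partners on genes of the phenylpropanoid and flavonoid pathway, in which phenylalanine is turned into flavonols, anthocyanins and related compounds. The family holds activators as well as repressors of that pathway, and other members act in cell shape, hormone and stress responses. The study places FSG0036280, FSG0159340, FSG0079980 and FSG0179850 in the R2R3 subfamily and lists Arabidopsis homologues. It calls FSG0036280 a positive regulator and the others negative, although its list holds FSG0036280 in the rising group, headed as negative. Which role any of the 5 unigenes has was not tested here. Their transcript sequences were not analysed here.

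Values are FPKM, the fragments of a unigene per kilobase of its length, scaled to the size of the library, so levels can be set beside each other between unigenes. The 9 libraries summed to between 801066 and 914583 FPKM and held between 40109 and 44825 unigenes above 0. No read counts or lengths come with the values, so no counting interval is given for low levels. From the size of the steps that 1 read makes among low values, depth was estimated at 0.729 to 1.288 times that of S1 replicate 2, and S2 replicate 1 was the deepest.

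At harvest all 5 unigenes were low, and by day 30 they differed widely in level. Mean FPKM in S1 lay between 0.09 for FSG0036280 and 3.36 for FSG0079980, which placed the 5 between the 3.22 and the 41.1 percentile of the tested unigenes. In S3 the means lay between 9.32 for FSG0036280 and 157 for FSG0159340, between the 59.6 and the 97.4 percentile. The order of the S3 means was FSG0159340, FSG0250900, FSG0079980, FSG0179850 and FSG0036280. The S3 values of FSG0159340 and FSG0250900 overlapped, as did those of FSG0179850 and FSG0036280, while all other neighbours in this order were apart.

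**Figure D1:**
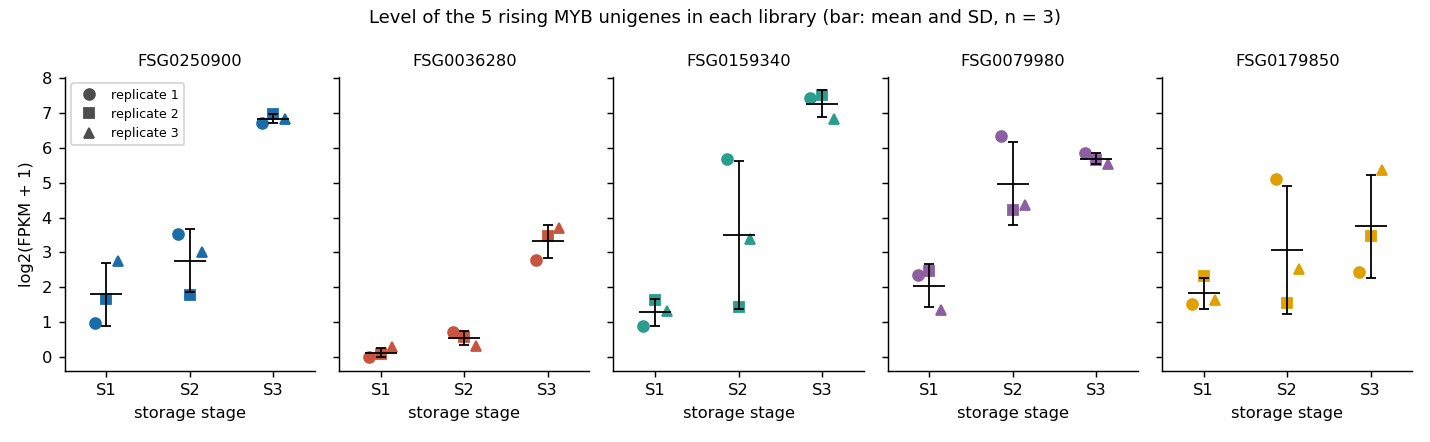
Level of each of the 5 MYB unigenes as log2(FPKM + 1) (vertical axis) at the 3 stages (horizontal axis), where points are libraries, shapes are replicates, and bars are the mean and SD (n = 3). In S2 the circle of replicate 1 is the highest point in all 5 panels, and for FSG0079980 and FSG0179850 it lies above the S3 mean.

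FSG0250900 stayed low until day 15 and was high in every day 30 library. Its FPKM was 0.96, 2.14 and 5.80 in S1 replicates 1 to 3, 10.48, 2.41 and 7.04 in S2, and 104.95, 126.03 and 112.60 in S3. The S1 and S2 libraries overlapped, while every S3 library lay far above all the others. The mean went from 2.97 ± 2.52 to 6.64 ± 4.05 and 115 ± 10.7 FPKM (SD, n = 3), a ratio of 2.24 for the first step and 17.2 for the second. On the log2(FPKM + 1) scale the steps were 0.97 and 4.08 (standard error 0.52), and harvest to day 30 came to 5.05. The 3 S3 libraries of this unigene differed little, with an SD of 0.13 on that scale against a median of 0.19 for unigenes of like level.

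FSG0036280 was the last of the 5 to be detected. Its FPKM was 0, 0.06 and 0.21 in S1, 0.65, 0.47 and 0.25 in S2, and 5.85, 10.15 and 11.96 in S3. It was thus listed at 0 in 1 library, below 1 FPKM in all 6 libraries of S1 and S2, and above 1 FPKM in all 3 of S3, with no overlap between any 2 stages. The mean went from 0.09 ± 0.108 to 0.457 ± 0.2 and 9.32 ± 3.14 FPKM (SD, n = 3). The first ratio of 5.07 rests on values below 1 FPKM, and the second was 20.4. The log2(FPKM + 1) steps were 0.41 and 2.78 (standard error 0.27), which the added 1 compresses at so low a level, since with 0.1 in its place they were 1.64 and 4.09.

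FSG0159340 had the largest rise from harvest to day 30 of the 5, at rank 18 of all tested unigenes. Its FPKM was 0.83, 2.10 and 1.5 in S1, 50.45, 1.71 and 9.47 in S2, and 174.08, 183.57 and 112.11 in S3. S2 replicate 1 was well on its way to the S3 level, S2 replicate 2 was still within the S1 range, and replicate 3 lay between them. The S2 values spanned 29.5-fold, and no S2 library reached the S3 range. The mean went from 1.48 ± 0.635 to 20.5 ± 26.2 and 157 ± 38.8 FPKM (SD, n = 3). The log2(FPKM + 1) steps were 2.23 and 3.76 (standard error 0.88), or 1.14 and 4.85 without S2 replicate 1. Without S2 replicate 2 they were 3.26 and 2.73, so which step was the larger depended on that library.

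FSG0079980 made most of its rise in the first 15 days. Its FPKM was 4.05, 4.5 and 1.53 in S1, 81.03, 17.59 and 19.48 in S2, and 57.00, 49.27 and 45.85 in S3. Every S2 library lay above every S1 library, and S2 replicate 1 lay above all of S3 while the other S2 libraries lay below it. The mean went from 3.36 ± 1.6 to 39.4 ± 36.1 and 50.7 ± 5.71 FPKM (SD, n = 3), with ratios of 11.7 and 1.29. The log2(FPKM + 1) steps were 2.93 and 0.71 (standard error 0.54), and the first was at rank 75 of all tested unigenes. Without S2 replicate 1 the S2 mean was 18.5 FPKM and the log2 steps were 2.24 and 1.40, so the first remained the larger.

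FSG0179850 had the smallest and least even rise. Its FPKM was 1.86, 4.01 and 2.08 in S1, 33.35, 1.93 and 4.78 in S2, and 4.45, 9.99 and 40.06 in S3. One library of S2 and one of S3 were high, S2 replicate 2 lay within the S1 range, and the lowest S3 library was only just above the highest of S1. The mean went from 2.65 ± 1.18 to 13.4 ± 17.4 and 18.2 ± 19.2 FPKM (SD, n = 3). Its log2(FPKM + 1) steps were 1.24 and 0.69 (standard error 0.96). Without S3 replicate 3 the second step was -0.11, and without S2 replicate 2 it was -0.06, so the direction of that step hung on single libraries. Without S2 replicate 1 the steps were 0.22 and 1.71, so the second was then the larger. The S3 mean without replicate 3 was 7.22 FPKM, and the S2 mean without replicate 1 was 3.35.

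Set side by side, the steps divided the 5 unigenes into those with the larger mean change after day 15 and those with the larger change before it. FSG0250900, FSG0036280 and FSG0159340 moved more in the second step, and FSG0079980 and FSG0179850 in the first. The order of the steps turned for FSG0159340 without S2 replicate 2 (3.26 and 2.73) and for FSG0179850 without S2 replicate 1 (0.22 and 1.71). Both steps share the S2 libraries, so a high S2 value adds to the one and takes from the other. The median log2(FPKM + 1) difference of the 5 was 1.24 in the first step, 2.78 in the second and 3.64 from harvest to day 30, where the medians of all tested unigenes were -0.03, 0.00 and -0.05. All later libraries lay above all earlier ones in 2 of the 5 from S1 to S2 (16.8% of the tested unigenes), in 3 from S2 to S3 (29.5%) and in 5 from S1 to S3 (24.8%). These counts follow in part from how the 5 were picked, and nothing is read from them.

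**Figure D2:**
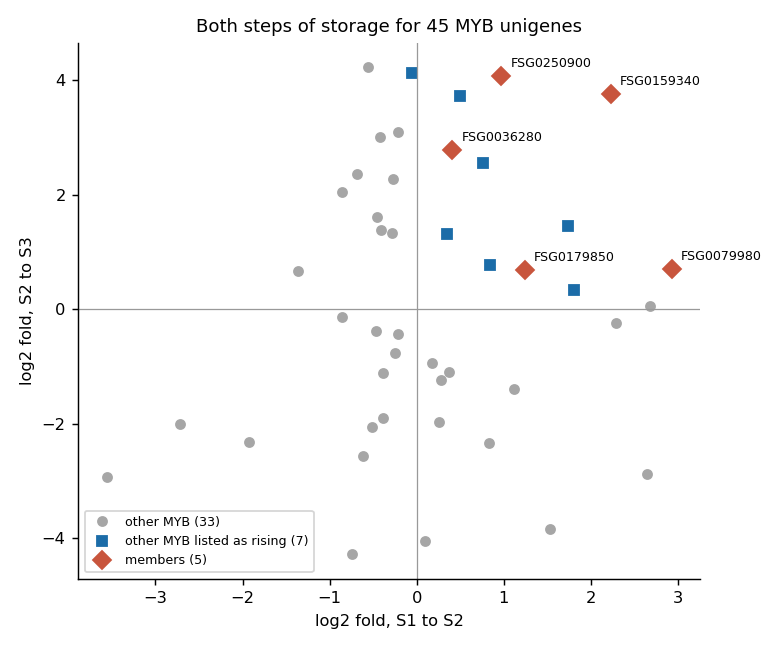
Difference in mean log2(FPKM + 1) from S1 to S2 (horizontal axis) and from S2 to S3 (vertical axis) for 45 MYB unigenes of the study's list, where diamonds are the 5 described here, squares the 7 other MYB unigenes listed as rising and grey circles the rest. FSG0079980 lies far to the right with a second step of 0.71, and FSG0250900 lies high with a first step of 0.97.

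Detection followed the same division only in part. At a level of 1 FPKM, FSG0079980 and FSG0179850 were present in all 9 libraries. FSG0250900 and FSG0159340 reached 1 FPKM in 2 of 3 S1 libraries, both falling short in replicate 1, and in every later library. FSG0036280 alone reached it in no library before day 30. None of the 5 was first detected in S2 by this measure, and each was above 0 in at least 2 of the harvest libraries.

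Summed over the 5 unigenes, FPKM was 7.70, 12.81 and 11.12 in S1, 175.96, 24.11 and 41.02 in S2, and 346.33, 379.01 and 322.58 in S3. The 3 S2 libraries lay apart from each other by more than those of S1 or S3, and the stages did not overlap. The stage means were 10.5 ± 2.6, 80.4 ± 83.2 and 349 ± 28.3 FPKM (SD, n = 3). FSG0079980 was the highest of the 5 in S1 replicates 1 and 2 and in all of S2. FSG0159340 took that place in S3 replicates 1 and 2, and FSG0250900 in S1 replicate 3 and S3 replicate 3. Of the FPKM of all 12 MYB unigenes that the study lists as rising, the 5 made up 6.26% to 8.92% in S1, 29.8%, 8.12% and 15.9% in S2 replicates 1 to 3, and 33.8% to 35.5% in S3.

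**Figure D3:**
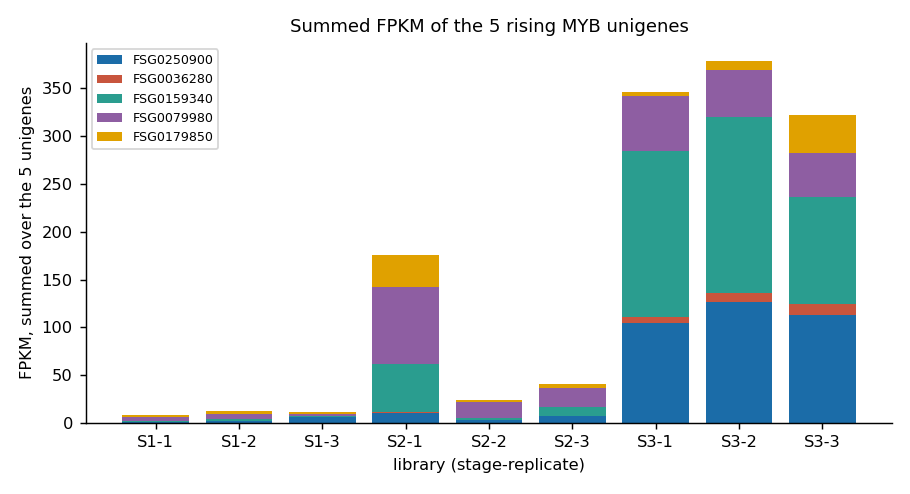
FPKM of the 5 MYB unigenes stacked for each library (horizontal axis, stage and replicate), with the sum on a linear axis from 0. S2 replicate 1 reached 175.96 against 24.11 and 41.02 in the other S2 libraries, and the S3 libraries were made up mainly of FSG0159340 and FSG0250900.

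One fruit sample of day 15 stood ahead of its stage for these unigenes. The place of each S2 library was put on a scale of log2(FPKM + 1) where 0% is the S1 mean and 100% the S3 mean. S2 replicate 1 stood at 34.1% for FSG0250900, 18.9% for FSG0036280, 73.6% for FSG0159340, 118% for FSG0079980 and 170% for FSG0179850. It was the highest S2 library for all 5, and past the mean of day 30 for the last 2. S2 replicate 2 stood at -0.514%, 13.6%, 2.72%, 59.6% and -14.0% in the same order. S2 replicate 3 stood at 24.0%, 6.33%, 35.3%, 63.5% and 36.7%. The median over the 5 was thus 73.6% in replicate 1, 2.72% in replicate 2 and 35.3% in replicate 3. For FSG0250900 the places of replicates 1 and 3 differed by less than the S1 libraries did among themselves, and for FSG0036280 the lead of replicate 1 over replicate 2 was likewise smaller than the spread of its S1 libraries.

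**Figure D4:**
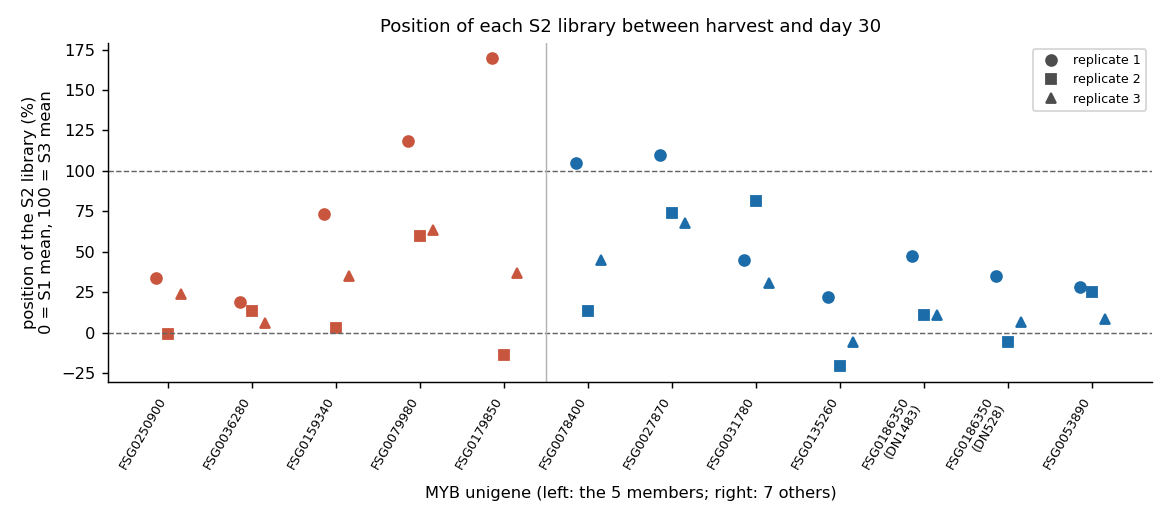
Place of each S2 library between the S1 mean (0%) and the S3 mean (100%) of log2(FPKM + 1) on the vertical axis, for the 5 unigenes (left of the line) and the 7 other MYB unigenes listed as rising (right), with replicates as shapes. Replicate 1 is the uppermost point for all 5 and for 6 of the other 7, FSG0031780 being the exception.

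The lead of S2 replicate 1 was not seen over rising unigenes in general. It was farthest toward S3 in 22.1% of the 2055 tested unigenes that were called higher in S3 than in S1 with a log2 difference of 1 or more and whose mean rose in both steps. The median places of S2 replicates 1 to 3 over those 2055 were 25.7%, 31.9% and 28.9%. Over all tested unigenes, replicate 1 was the highest of S2 in 25.1%. A level 2 or more times that of both other S2 libraries, as FSG0159340, FSG0079980 and FSG0179850 had, was found in 777 tested unigenes (2.57%) for replicate 1, against 3.81% for replicate 2 and 3.82% for replicate 3.

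Other factors of the study's list shared that lead. Replicate 1 was the highest of S2 for 6 of the other 7 MYB unigenes listed as rising, and 4 of them exceeded both other S2 libraries 2-fold or more. Among the 23 bHLH, WRKY, bZIP and Dof unigenes listed as rising it was farthest toward S3 in 22, with a median place of 55.8% against -0.0842% and 2.63% in replicates 2 and 3. Among the 8 tested structural genes listed as rising it was farthest in 2, and the median places were 47.7%, 61.4% and 69.3%. The study chose these lists on the same libraries, so they are not independent of each other or of S2 replicate 1. This library was also the deepest, at 1.288 times the depth of S1 replicate 2 against 0.819 and 0.874 for the other S2 libraries, and the part of depth in its lead was not tested.

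The spread within S2 was large for the level of these unigenes. The SD of log2(FPKM + 1) in S2 was 2.13 for FSG0159340, 1.83 for FSG0179850, 1.20 for FSG0079980 and 0.90 for FSG0250900. Unigenes of like level had a median SD between 0.09 and 0.15, and at most 2.38% of them had a larger one. FSG0036280 was the exception, with 0.20 against a median of 0.32. In S3 only FSG0179850 remained as uneven, with an SD of 1.48 against a median of 0.20 and 1.24% of unigenes of like level above it. Its S3 replicates 1 to 3 stood at 32.3%, 84.7% and 183% of the way from the S1 to the S3 mean, whereas those of the other 4 lay between 83.1% and 112%.

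The 5 did not share a single profile. Likeness was measured as the root mean square difference over the 9 libraries after each profile was centred and scaled to its SD, where 0 is the same profile and the median distance from each of the 5 to the tested unigenes was 1.45 or 1.46. The closest pair were FSG0250900 and FSG0036280 at 0.281, followed by FSG0250900 and FSG0159340 at 0.329. FSG0036280 and FSG0179850 were the farthest apart at 0.921. The 9 points of each profile share their stages, so profiles with like stage means lie close.

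Among the unigenes of the study's lists, the nearest to FSG0250900 were the MYB unigene FSG0186350 (TRINITY_DN528_c0_g6) at 0.201 and the Dof unigene FSG0218970 (TRINITY_DN10329_c0_g2) at 0.232. That Dof unigene was also nearest to FSG0036280, at 0.135, before the bZIP unigene FSG0239400 at 0.155. It was listed at 0, 0 and 0.30 FPKM in S1, had 2.65, 0.21 and 0.21 in S2, and reached 104.60, 153.64 and 190.25 in S3, so it too was low in all S1 and S2 libraries. For FSG0159340 they were the bZIP unigene FSG0058440 (TRINITY_DN649_c2_g1) at 0.206 and the MYB unigene FSG0078400 at 0.245. The list gives the identifier FSG0058440 also to TRINITY_DN5971_c1_g3, an entry taken as MYB. FSG0078400 had 121.05, 15.01 and 31.17 FPKM in S2, with replicate 1 again above the others and above all 3 S3 libraries, which had 94.37 to 117.93.

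For FSG0079980 the nearest were the bHLH unigene FSG0266210 at 0.285, with no tested unigene nearer, and the MYB unigene FSG0027870 at 0.298. FSG0027870 had 132.77, 77.37 and 69.88 FPKM in S2 and 110.52 to 120.17 in S3, so here too replicate 1 was the highest of S2 and above all of S3. The nearest to FSG0179850 were the WRKY unigenes FSG0032540 at 0.536 and FSG0039260 at 0.557, at larger distances than for the other 4. Both also had their highest S2 value in replicate 1 (6.19 and 7.17 FPKM) and their highest S3 value in replicate 3 (20.63 and 43.18 FPKM).

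The other 7 MYB unigenes of the rising group lie beside the 5 under the same listing. With limma on log2(FPKM + 1) and Benjamini-Hochberg adjustment over the tested unigenes, 7 of 7 rose from S1 to S3, 5 from S2 to S3 and 2 from S1 to S2, where 22.1%, 23.3% and 7.24% of all tested unigenes were called higher. The list was chosen on these libraries for that direction. Their median log2 differences were 0.76, 1.45 and 3.20 for the first step, the second and both together, with a range of 1.61 to 4.23 for both. FSG0186350 (TRINITY_DN528_c0_g6) had the largest rise of them, from 0.433 ± 0.187 to 1.30 ± 1.48 and 26.0 ± 3.66 FPKM (SD, n = 3), a log2 difference of 4.23 between S1 and S3 (standard error 0.39). Before S3 it reached 1 FPKM only in S2 replicate 1. The list gives the same identifier to TRINITY_DN1483_c0_g1. FSG0135260 (TRINITY_DN1205_c0_g2) rose from 2.85 ± 0.873 to 62.1 ± 6.16 FPKM (SD, n = 3), by 4.06 on the log2 scale (standard error 0.39), and its S2 mean of 3.11 ± 2.56 lay at the S1 level.

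The study's longer list of factors holds those it found changed between at least one pair of stages of these libraries, so a high share of calls was fixed by the list. Its entries carry no family name, and the first 45 entries were taken as MYB from the family sizes in the text, so the family of single entries is uncertain. Of the 40 other than the members, the 7 included, limma called 15 in the first step, 8 higher and 7 lower, against 17.9% of all tested unigenes (7.24% higher and 10.7% lower). From S2 to S3 it called 33, 14 higher and 19 lower, against 46.5% (23.3% and 23.2%). From S1 to S3 it called 36, of which 18 were higher and 18 lower, against 47.5% (22.1% and 25.4%). Their median log2 differences were -0.23, -0.31 and -0.46, and calls were made in either direction. The calls include TRINITY_DN5971_c1_g3 and TRINITY_DN4895_c0_g2, which reached 1 FPKM only in S3, and TRINITY_DN14058_c0_g1, which did so only in S2. These passed the filter only through the stage where they were high, so their calls follow in part from the filter. The largest falls from S1 to S3 were -6.48 for FSG0083540 (standard error 0.21) and -5.02 for FSG0019590 (standard error 0.43). Without S1 replicate 2 or S2 replicate 1 the calls of the first step fell to 8, and without S2 replicate 2 to 9.

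The study also lists structural genes of the flavonoid pathway, the enzymes that MYB factors are known to regulate in many plants. It chose them on these libraries for their course over the stages, so the counts follow from that choice and say nothing of the pathway as a whole. Of 28 listed, 27 were tested, and limma with Benjamini-Hochberg adjustment called 8 that rose and 17 that fell between harvest and day 30, 25 in all, against 47.5% of all tested unigenes. The first step gave 3 that rose and 12 that fell (background 17.9%), and the second 3 and 8 (46.5%). The number that rose in the second step was 0 without S3 replicate 1 or 2 and 4 without S3 replicate 3. It was 1 without S2 replicate 1 or 3 and 2 without S1 replicate 3. With an S3 library left out only 26 were tested. The flavonol synthase unigene SeFLS3 then failed the filter, since it reached 1 FPKM only in S3, so it was untested there and not merely uncalled. With all 9 libraries it passed the filter only through S3, where it was high. It is counted among those that rose from S2 to S3 and from S1 to S3, and these calls follow in part from the filter. The median log2 differences of the 27 tested were -0.95, -0.59 and -1.79 for the first step, the second and both. From S1 to S3, SeFLS3 rose by 5.44 on the log2 scale (standard error 0.34), and SeUGT12, a glycosyltransferase unigene, by 2.74 (standard error 0.46). SeUGT3 and SeUGT2 fell by 5.30 (standard error 0.22) and by 4.22 (standard error 0.42). The calls of the first step numbered 9 without S2 replicate 2. Whether any of these enzymes is a target of the 5 MYB unigenes was not measured.

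Unigenes whose identifier shares the DN number of a member, called its Trinity cluster here, could share its reads. FSG0250900, FSG0079980 and FSG0179850 had none, FSG0036280 had 6 and FSG0159340 had 3, and 5 of these 9 were tested. The match was on the DN number alone. The 6 of FSG0036280 also share its c0, while TRINITY_DN2310_c1_g1 and TRINITY_DN2310_c1_g2 carry c1 where FSG0159340 has c0. Whether any of the 9 shared reads with a member was not tested. TRINITY_DN2310_c1_g1, listed by the study as the MYB unigene FSG0136430, had 0, 0.36 and 1.04 FPKM in S1, 0.76, 0 and 0 in S2, and 15.26, 9.88 and 5.14 in S3. It rose from S2 to S3 by 3.09 on the log2 scale (standard error 0.42) and stood 2.87 above S1. Outside S3 it reached 1 FPKM only in S1 replicate 3. TRINITY_DN2310_c1_g2 was listed at 0 in all 6 libraries of S1 and S2 and had 3.63, 7.49 and 4.70 FPKM in S3. It passed the filter only through its S3 libraries, so its rise is described without a test. Neither of these neighbours had the S2 replicate 1 value of FSG0159340, which was 50.45 FPKM in the library where they stood at 0.76 and 0. The remaining neighbour, TRINITY_DN2310_c0_g2, which shares the c0 of the member, was too low to be tested. It was listed at 1.47, 0 and 0.76 FPKM in S1 and at 0 in every S2 and S3 library, whereas the member rose.

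In the cluster of FSG0036280 the neighbours differed from each other. TRINITY_DN11249_c0_g4 had 17.95, 9.75 and 5.78 FPKM in S1, 2.94, 4.10 and 3.33 in S2, and 0.67, 3.87 and 0.39 in S3. From harvest to day 30 its log2(FPKM + 1) fell by 2.31 (standard error 0.51, limma adjusted p = 0.00571), while the member rose. TRINITY_DN11249_c0_g2 had 1.89, 1.99 and 0.47 FPKM in S1, 0.21, 0.15 and 0.07 in S2, and 0.86, 1.13 and 1.05 in S3. Its difference of -1.03 from S1 to S2 (limma adjusted p = 0.0443) did not pass when any single S2 library was left out, nor did that of 0.82 from S2 to S3. The latter lay at the threshold with all libraries (limma adjusted p = 0.05 after rounding). Calls from S2 to S3 among the neighbours fell from 3 to 2 with median-of-ratios scaling, no filter, a replicate block or without S1 replicate 2. The first-step difference also failed without S1 replicate 1 or 2 and without S3 replicate 1 or 3. It failed as well with quantile scaling, no filter, a replicate block or only the 6 libraries compared. TRINITY_DN11249_c0_g1 had limma adjusted p values of 0.335, 0.411 and 0.707 in the first step, the second and both together. The other 3 were too low to be tested. Of these, TRINITY_DN11249_c0_g7 was higher in S3, like the member, with means of 0.177, 0.163 and 0.94 FPKM in S1, S2 and S3 and no overlap of S3 with either earlier stage. TRINITY_DN11249_c0_g3 had means of 0.517, 0.633 and 0.717, and TRINITY_DN11249_c0_g5 of 0.503, 0.04 and 0.707. How the reads of a cluster were shared among its unigenes is not given in the sources used here, so the levels of FSG0036280 and FSG0159340 carry that uncertainty.

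**Figure D5:**
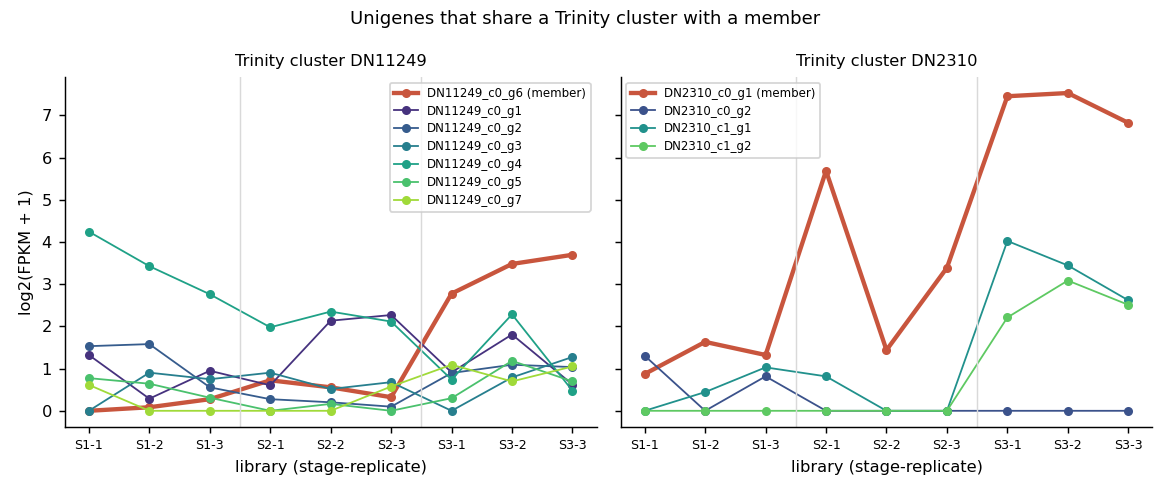
Level as log2(FPKM + 1) (vertical axis) in each library (horizontal axis, stage and replicate), with the member as the thick line. FSG0036280 and the 6 unigenes with its DN number are on the left, and FSG0159340 and the 3 with its DN number on the right. On the left the member rises in S3 while TRINITY_DN11249_c0_g4 declines. On the right TRINITY_DN2310_c1_g1 and TRINITY_DN2310_c1_g2 are highest in S3, at 0.76 and 0 FPKM in S2 replicate 1 against 50.45 for the member.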

How the data were processed

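The 9 libraries are grouped by the stage in their labels, 3 each for S1, S2 and S3. The authors deposited FPKM to 2 decimals, while their heat maps are said to use RPKM. Reads had been cleaned with fastp per the labels, with a mapper, counting tool and scaling not given in the sources used here. FPKM totals differed between libraries. In 1 file, 8 columns without names were not used.

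Levels were compared as log2(FPKM + 1), where the added 1 understates changes of low values, with Python 3.11.15, numpy 2.4.6, pandas 2.3.3, matplotlib 3.10.9 and R 4.3.3. limma 3.58.1 (lmFit, eBayes with trend) was fitted to all 9 libraries over the 30201 unigenes reaching 1 FPKM in 3 or more of them. P-values were adjusted by Benjamini-Hochberg and called under 0.05. They weigh a difference between stages against the spread among these libraries within stages. No p-value is given for the 5 members, or for MYB and structural unigenes named for their rise or fall, since they were picked for that course. The members and lists were chosen with earlier results of these data known. Of the 40 other MYB unigenes, the 28 structural genes and the neighbours in Trinity clusters, the text names the largest rises and falls, and for each member the nearest listed profiles. The tests were tried on simulated data.

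Alternatives were median-of-ratios and quantile scaling, no filter, a filter at 5 FPKM, an added 0.1, a log2 fold of at least 1, only the 6 libraries compared, a replicate block and each library left out. S2 replicate 1 was examined further, against other sets, after its values were seen.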

Additional observations from a re-analysis of the deposited data

How the results depend on the processing

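The log2 differences of the 5 MYB unigenes kept their direction under median-of-ratios scaling, quantile scaling and an added 0.1, and when 1 library was left out, except that FSG0036280 had no fit without an S3 library, since it then failed the filter, and except that FSG0179850 from S2 to S3 was -0.06 without S2 replicate 2 and -0.11 without S3 replicate 3 (range -0.11 to 1.71). The cause was not tested. Without S2 replicate 2, FSG0159340 had a larger first step than second (3.26 and 2.73), and without S2 replicate 1, FSG0179850 a larger second than first (0.22 and 1.71). The median place of S2 replicate 1 over the 5 ranged from 71.0% to 75.2% with 1 S1 or S3 library left out, and that of replicate 2 from -0.67% to 8.29%, the former without S1 replicate 1. Low values limit FSG0036280 most, since its overall difference of 3.20 became 5.73 with an added 0.1.

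With a log2 fold of at least 1 required, 2861, 8332 and 8662 of the tested unigenes were called from S1 to S2, S2 to S3 and S1 to S3 in place of 5406, 14053 and 14346, and 7 structural genes from S2 to S3 in place of 11. With 1 library left out, these totals ranged from 2633 to 5781, 10838 to 15623 and 11391 to 15161. For the first step they were 3392 without S1 replicate 2, 2674 without S2 replicate 1, 2633 without S2 replicate 2 and 2976 without S2 replicate 3. The other MYB unigenes called ranged from 8 to 17, 28 to 33 and 33 to 37, and the structural genes from 9 to 19, 8 to 13 and 23 to 26. Quantile scaling changed the split of the first step from 2186 higher and 3220 lower to 2812 and 2691.

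Replicate numbers are not described as pairing the fruit. Deviations of libraries with the same number correlated at -0.138 to 0.042 over 9 pairs, against -0.104 to 0.119 for the 18 others. Such correlations cannot decide whether libraries of the same number shared a plant or a batch. With a replicate block the calls numbered 4033, 13024 and 13384 over all tested unigenes, 11, 32 and 36 over the other MYB unigenes and 11, 12 and 26 over the structural genes.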

Other observations

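Order within the other stages differed from that of S2. Of the 12 MYB unigenes listed as rising, S1 replicate 2 was the highest S1 library for 9, where it was so in 27.7% of the tested unigenes. Among the 12 MYB unigenes listed as falling, S2 replicate 1 was the highest S2 library for 3 and S1 replicate 3 the highest S1 library for 10, against 25.1% and 32.7% of the tested unigenes. For a falling unigene the library farthest toward S3 is the lowest. By place, S2 replicate 1 was farthest toward S3 for 7 of these 12. That share was 34.8% among the 4880 tested unigenes called lower in S3 than in S1 with a log2 difference of -1 or less. Median places over the 12 were 40.4%, 35.3% and 35.3% in S2 replicates 1 to 3. For the 23 bHLH, WRKY, bZIP and Dof unigenes listed as rising, S3 replicate 3, the library in which FSG0179850 reached 40.06 FPKM, was the highest of S3 for 15, against 30.7% of the tested unigenes. These are counts over lists chosen on the same 9 libraries, whose members are not independent of each other, and no test was made of them.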
